A study of Mus musculus with 6 samples.

Results

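Assembly factors of the mitochondrial respiratory chain are proteins that build complexes I to V without staying in them. The genes described here were the 44 rows of the deposited count table, of 49997 in all, whose mouse symbol matched a fixed set of names: the Ndufaf genes with Acad9, Ecsit, Tmem126b, Timmdc1, Foxred1 and Nubpl for complex I, Sdhaf1 to Sdhaf4 for complex II, Bcs1l, the Uqcc genes, Ttc19 and Lyrm7 for complex III, the Coa genes, Cox10 to Cox20, Surf1, Sco1 and Sco2 for complex IV, and Atpaf1 and Atpaf2 for complex V. The rule itself reads symbols and no measured value, but it was proposed with earlier results of these data known. The libraries came from long-term haematopoietic stem cells (LT-HSCs) of 4-month-old mice, with C57BL/6J under genotype in the labels, sorted by flow cytometry from bone marrow for high Asrij (3 libraries) or low Asrij (3 libraries). The deposited counts carry ArjKI in their name, a term that the genotype given (C57BL/6J) does not hold. Asrij is the protein product of Ociad1, found on endosomes and mitochondria and reported to act on respiratory complexes. The labels do not state how Asrij was read in the sort, how pure the gates were, or whether each library is from a different mouse. The p-values therefore speak only of the spread among these 6 libraries, which may be technical.

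Respiratory complexes are assembled in steps from subunits made in the cytosol and from subunits made inside mitochondria from the mitochondrial genome. Assembly factors hold partly built modules together, insert haem, copper, flavin and iron-sulphur clusters, and bring the modules into the inner membrane. LT-HSCs are known for relying on glycolysis while quiescent and for raising mitochondrial respiration as they divide and differentiate.

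Library totals ran from 62732782 to 72855125 counts in Asrij high and from 24707012 to 46240743 counts in Asrij low, so depth differed with the groups. Asrij low replicate 3 stood apart: its 10 most abundant genes held 19.4% of its counts, where the other libraries had between 5.15% and 9.995%, and it had the highest sums of erythroid-type, mesenchymal-type and B and plasma cell-type markers. Without it, 15 members were called higher and 0 lower, with a median log2 fold change of 0.62, beside 19, 0 and 0.75 with it. Over all genes, 4222 of 22957 tested were called higher without it and 4655 of 21445 with it. Levels are CPM, the deposited counts brought to 1 library size with TMM factors, and fold changes have Asrij high in the numerator. Errors of levels are SD (n = 3 per group) and errors of log2 fold changes are standard errors. The edgeR quasi-likelihood test gave the adjusted p-values (Benjamini-Hochberg, 21445 genes, threshold 0.05) unless another tool is named. Ociad1 averaged 80.3 ± 5.76 CPM in the Asrij high libraries and 51.6 ± 5.72 CPM in the Asrij low libraries (Ociad1 log2 fold change 0.64 ± 0.16, adjusted p = 0.0115), the direction the labels give. It missed the threshold when Asrij high replicate 1 was left out (adjusted p = 0.0831) and when only library totals or upper quartile factors were used for scaling (adjusted p = 0.133 and 0.0834). HSC-type markers were counted in every library, and 5 of 6 were lower in Asrij high, with a summed level between 35.4 and 147 CPM in Asrij high and between 450 and 549 CPM in Asrij low.

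Sequence around a transcription start is shown for 3 members that rose in each of the settings tried, Uqcc2, Cox10 and Timmdc1, chosen with their motif matches known, and for Ttc19, the member nearest to no change. Each window runs from 250 bases before to 50 bases after a RefSeq transcription start, 5′ to 3′ on the strand of the gene, on build GRCm38.p6, the assembly behind mm10. Capitals mark exact matches, on either strand, to GCGCA and GCGC separated by any 1 base (a core of the NRF1 motif), CCGGAAGT (an ETS-type motif bound by GABPA) and AAGATGGC (a YY1 motif). CACGTG, the E-box, was searched as well and is not in these 4 windows. The windows are chr17:27133842-27134141 (minus strand) for Uqcc2, chr11:64079423-64079722 (minus strand) for Cox10, chr16:38522614-38522913 (minus strand) for Timmdc1 and chr11:62281223-62281522 (plus strand) for Ttc19.
Uqcc2: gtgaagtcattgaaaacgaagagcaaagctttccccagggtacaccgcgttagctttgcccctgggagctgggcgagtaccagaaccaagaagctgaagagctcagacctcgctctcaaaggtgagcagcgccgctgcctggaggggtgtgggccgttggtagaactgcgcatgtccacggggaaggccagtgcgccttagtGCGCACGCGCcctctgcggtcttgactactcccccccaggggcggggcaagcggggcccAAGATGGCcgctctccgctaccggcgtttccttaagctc
Cox10: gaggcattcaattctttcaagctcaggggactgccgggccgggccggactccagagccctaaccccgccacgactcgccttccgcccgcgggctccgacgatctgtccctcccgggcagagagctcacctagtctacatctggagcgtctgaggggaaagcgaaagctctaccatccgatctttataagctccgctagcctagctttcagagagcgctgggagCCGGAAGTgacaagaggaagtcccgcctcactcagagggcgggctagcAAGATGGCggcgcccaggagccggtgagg
Timmdc1: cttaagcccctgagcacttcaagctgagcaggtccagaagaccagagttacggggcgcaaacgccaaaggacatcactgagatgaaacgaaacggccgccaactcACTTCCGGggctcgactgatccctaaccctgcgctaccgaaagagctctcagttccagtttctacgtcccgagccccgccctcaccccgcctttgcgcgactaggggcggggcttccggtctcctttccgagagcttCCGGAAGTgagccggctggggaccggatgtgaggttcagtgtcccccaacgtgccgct
Ttc19: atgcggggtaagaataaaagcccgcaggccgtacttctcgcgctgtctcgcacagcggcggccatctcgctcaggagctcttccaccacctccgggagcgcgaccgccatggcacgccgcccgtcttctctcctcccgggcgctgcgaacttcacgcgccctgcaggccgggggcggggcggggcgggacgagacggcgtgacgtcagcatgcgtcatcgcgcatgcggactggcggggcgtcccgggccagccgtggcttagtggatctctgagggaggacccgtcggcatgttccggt

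Counting the transcription start used for the window as 1, the match for NRF1 in Uqcc2 starts at position -48 and that for YY1 at position 12. In Cox10 the GABPA match starts at position -27 and the YY1 match at position 22, and Timmdc1 has GABPA matches at positions -145 and -8. The starts used for Timmdc1 and Ttc19 lie inside the gene spans given below, as does the Timmdc1 match at position -8. No match to these letters was found in the Ttc19 window. The 4 windows shown do not stand for the members. Ndufaf1, Ndufaf2, Ndufaf7, Foxred1 and Coa5 also rose in each of the settings tried, and their windows held no match. Windows of Ndufaf5, Cox14 and Sdhaf3, which did not pass the test, held matches. RefSeq windows of 300 bases were found for 39 of the 44 members, and 19 of the 39 held at least 1 match to the 4 motifs, with 0 pairs of overlapping matches. The share of all genes with at least 1 match was not counted. NRF1 letters stood in 12.8% of the 39 members, against 10.4% of 11509 protein-coding genes tested, and GABPA letters in 15.4%, against 8.20%. YY1 letters stood in 15.4% of members, against 4.82%, and the E-box in 15.4%, against 11.1%. Of the 39 members with a window, 15 were called higher in Asrij high and 24 were not called. YY1 letters stood in 4 of the 15 (Atpaf2, Cox10, Ndufaf8 and Uqcc2) and in 2 of the 24 (Cox20 and Tmem126b), and E-box letters in 1 of the 15 and 5 of the 24. NRF1 letters stood in 2 of the 15 and 3 of the 24, and GABPA letters in 3 of the 15 and 3 of the 24. These matches describe the letters of the windows and were not tested against the expression values.

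Assembly factor genes were higher in Asrij high or did not pass the test, and none was lower. All 44 members passed the filter on low counts. Of them, 19 rose (43.2%), where 21.7% of all genes tested were called higher, and 0 fell, where 17.7% of all genes were called lower. At an unadjusted p under 0.05, 26 members were higher and 0 were lower, and the share of all genes at that limit was not counted. DESeq2 called 21 higher and 0 lower, and limma-voom called 23 higher and 0 lower. The log2 fold changes ran from -0.01 (Ttc19) to 1.87 (Coa6), with a median of 0.75, beside -0.02 over all genes tested. In 29 members (65.9%) every Asrij high library lay above every Asrij low library, where this held for 30.2% of all genes tested. In either direction the groups did not overlap for 55% of all genes. Of the 44 members 43 had a log2 fold change above 0, as did 49.4% of all genes tested. At least a doubling was seen in 14 of the 19 called members (31.8% of members, beside 13.9% of all genes tested).

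The count depended on the libraries and on the scaling. Leaving out Asrij high replicate 3 gave 11 members, where 3323 of 22848 genes tested were called higher. The main test called 4655 of 21445 genes higher. With library totals or upper quartile factors 13 members remained called, where 3270 and 3447 of 21445 genes were called higher. Both of those scalings moved the log2 fold changes of all genes by a median of -0.27, took the median of the members to 0.48 and 0.49, and left 39 of 44 members above 0. In the calls over all genes, they lowered the share of higher calls to 40.2% and 39.9%, against 55.1% with TMM factors, while the members still had 0 lower calls under either. In bulk samples, more RNA of a gene per cell and more cells of a type that expresses it cannot be told apart.

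**Figure D1:**
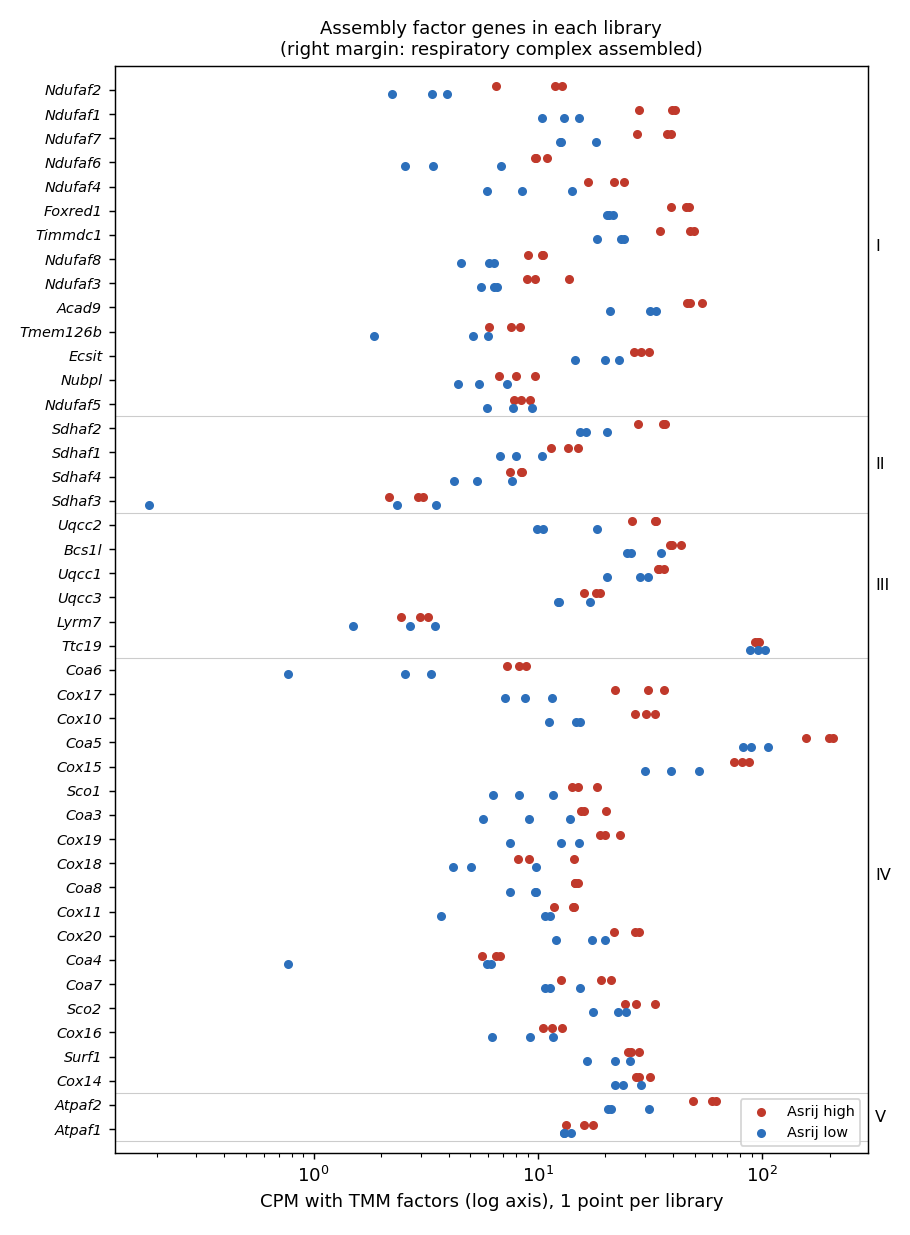
CPM of the 44 assembly factor genes on a log axis, with 1 point per library, Asrij high in red above Asrij low in blue, and genes grouped by the complex they help to build. In 29 genes the 3 red points all lie to the right of the 3 blue points, and Sdhaf3, Coa4 and Coa6 each have 1 blue point far to the left.

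Complex I factors held the most rises. Of 14 members, 9 rose and 0 fell, with a median log2 fold change of 0.91. Over all genes tested 21.7% were called higher and 17.7% lower, the shares to set beside each count by complex or list. Their summed level was 355, 280 and 338 CPM in Asrij high replicates 1 to 3, against 166, 171 and 158 CPM in Asrij low replicates 1 to 3, so that the groups did not overlap.

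Ndufaf1, Ecsit, Acad9 and Tmem126b encode core proteins of the mitochondrial complex I intermediate assembly (MCIA) complex, which builds part of the membrane arm, and Timmdc1 encodes a membrane protein that acts with it. Ndufaf1 (chromosome 2, 119655446 to 119662839) had 41.0, 28.4 and 39.9 CPM in Asrij high replicates 1 to 3, against 10.48, 15.3 and 13.1 CPM in Asrij low replicates 1 to 3. The groups did not overlap, and the difference was 2.81-fold (log2 fold change 1.49 ± 0.24, adjusted p = 0.00171). Timmdc1 (chromosome 16, 38497843 to 38522778) had 47.7, 35.1 and 49.8 CPM in Asrij high replicates 1 to 3, against 18.4, 24.3 and 23.5 CPM in Asrij low replicates 1 to 3. It was 2.0-fold higher in Asrij high (log2 fold change 1.003 ± 0.21, adjusted p = 0.00572). Acad9, an acyl-CoA dehydrogenase that also serves as an assembly factor, was 1.71-fold higher (log2 fold change 0.77 ± 0.22, adjusted p = 0.0187), but it missed the threshold when Asrij high replicate 1 or 3 was left out (adjusted p = 0.0833 and 0.0537) and under library totals (log2 fold change 0.49, adjusted p = 0.124) or upper quartile factors (0.51, adjusted p = 0.0758). Over all alternatives its adjusted p ran from 0.00288 to 0.124.

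The remaining MCIA members did not pass the test. Ecsit, which is also known as a signalling adaptor in Toll-like receptor pathways, had 31.4, 28.7 and 26.7 CPM in Asrij high replicates 1 to 3, against 22.9, 14.7 and 19.9 CPM in Asrij low replicates 1 to 3. Its libraries did not overlap between groups, and it missed the threshold (log2 fold change 0.59 ± 0.23, adjusted p = 0.0624). It passed without Asrij low replicate 1 (adjusted p = 0.0491) and with no count filter. Tmem126b had 7.31 ± 1.17 CPM in the Asrij high libraries and 4.33 ± 2.19 CPM in the Asrij low libraries (log2 fold change 0.75 ± 0.44, adjusted p = 0.208), with Asrij low replicate 3 at 1.85 CPM and the other Asrij low libraries at 5.15 and 5.99 CPM.

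Factors of the peripheral arm of complex I, which takes electrons from NADH and passes them to ubiquinone, rose in 6 of 9 cases, with a median of 1.07. Foxred1, a flavin-dependent oxidoreductase (chromosome 9, 35204208 to 35211171), had 45.6, 39.2 and 47.0 CPM in Asrij high replicates 1 to 3, against 20.8, 21.6 and 20.4 CPM in Asrij low replicates 1 to 3. The Asrij low libraries lay close together, and the difference was 2.10-fold (log2 fold change 1.07 ± 0.18, adjusted p = 0.00199). Ndufaf7, a methyltransferase needed for complex I assembly (chromosome 17, 78937106 to 78948052), had 39.4, 27.8 and 37.5 CPM in Asrij high replicates 1 to 3, against 12.6, 18.1 and 12.7 CPM in Asrij low replicates 1 to 3. It was 2.41-fold higher in Asrij high, with no overlap (log2 fold change 1.27 ± 0.24, adjusted p = 0.00341). Ndufaf2, a relative of the subunit Ndufa12 that acts late in assembly, was 3.27-fold higher at 10.4 ± 3.41 CPM in the Asrij high libraries and 3.19 ± 0.869 CPM in the Asrij low libraries (log2 fold change 1.71 ± 0.38, adjusted p = 0.00710). Of its exon bases, 65.6% overlap the noncoding gene B230220B15Rik on the other strand, and the strand setting of the counting is not given in the sources used here.

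Ndufaf3 and Ndufaf4 encode partners that bind early peripheral arm modules, Ndufaf6 belongs to a family of prenyltransferase-like proteins, and Ndufaf8 encodes a partner of Ndufaf5. Ndufaf4 rose (log2 fold change 1.14 ± 0.34, adjusted p = 0.0243) and Ndufaf6 rose (log2 fold change 1.24 ± 0.40, adjusted p = 0.0334), as did Ndufaf8 (log2 fold change 0.82 ± 0.29, adjusted p = 0.0470), while Ndufaf3 just missed the threshold (log2 fold change 0.80 ± 0.29, adjusted p = 0.0535). Ndufaf3 passed it without Asrij high replicate 2 (adjusted p = 0.0426) and in DESeq2. The calls of Ndufaf4, Ndufaf6 and Ndufaf8 depended on several libraries. Ndufaf4 missed the threshold when leaving out Asrij high replicate 1 or 3 (adjusted p = 0.0826 and 0.109) or Asrij low replicate 1 or 2 (0.0678 and 0.0608). Ndufaf6 missed it when leaving out Asrij high replicate 1, 2 or 3 (0.114, 0.0525 and 0.0937) or Asrij low replicate 2 or 3 (0.0775 and 0.0928). Among the 16 alternatives Ndufaf8 passed in DESeq2 and limma-voom alone, and it missed the threshold with replicate number as a block (adjusted p = 0.0719) and with any library left out (adjusted p = 0.195, 0.0859 and 0.143 without Asrij high replicates 1 to 3, and 0.0754, 0.0807 and 0.0578 without Asrij low replicates 1 to 3). All 3 genes lost their calls under library totals (adjusted p = 0.0538, 0.110 and 0.186) and upper quartile factors (0.0766, 0.0861 and 0.176). Over all alternatives their adjusted p ran from 0.00216 to 0.109 for Ndufaf4, from 0.00909 to 0.121 for Ndufaf6 and from 0.0282 to 0.195 for Ndufaf8.

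Nubpl, which is needed for iron-sulphur clusters of complex I, had 8.14 ± 1.51 CPM in the Asrij high libraries and 5.72 ± 1.47 CPM in the Asrij low libraries and did not pass the test (log2 fold change 0.51 ± 0.33, adjusted p = 0.243). Ndufaf5, a hydroxylase of the subunit Ndufs7, was the complex I factor nearest to no change. It had 8.45, 7.87 and 9.21 CPM in Asrij high replicates 1 to 3, against 7.74, 5.92 and 9.38 CPM in Asrij low replicates 1 to 3, and the groups overlapped (log2 fold change 0.15 ± 0.29, adjusted p = 0.716). Its fold change turned to -0.12 under library totals and -0.13 under upper quartile factors.

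**Figure D2:**
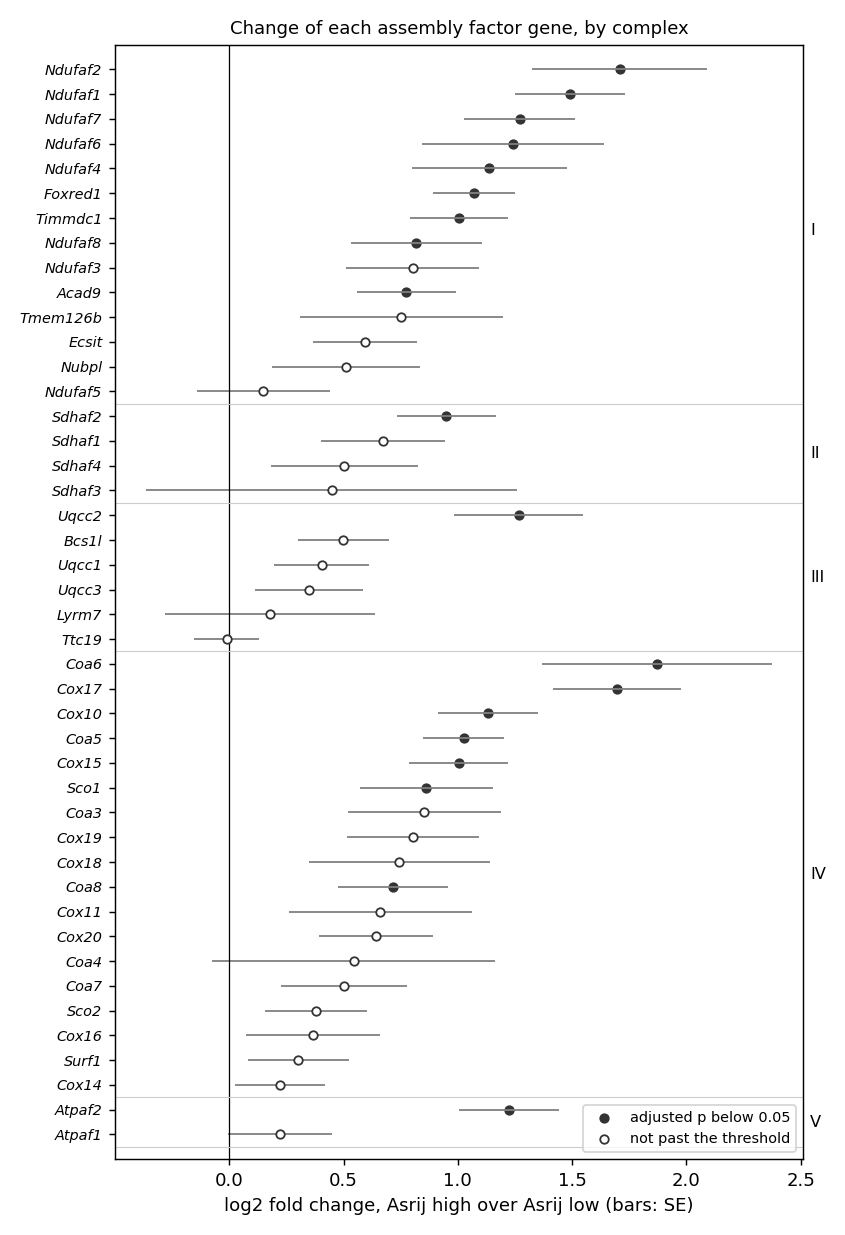
Log2 fold change of each member, Asrij high over Asrij low, with its standard error, grouped by complex and sorted within it. Filled points are the 19 members past the adjusted p threshold of 0.05, and the points run from -0.01 for Ttc19 to 1.87 for Coa6.

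Among complex II factors, which mature succinate dehydrogenase, only Sdhaf2 of 4 members passed the test. That is near the 21.7% of all genes tested that were called higher. Sdhaf2 attaches the flavin cofactor to the subunit Sdha (chromosome 19, 10500512 to 10525209). It had 36.3, 27.8 and 36.8 CPM in Asrij high replicates 1 to 3, against 16.4, 15.4 and 20.4 CPM in Asrij low replicates 1 to 3. It was 1.93-fold higher in Asrij high with no overlap (log2 fold change 0.95 ± 0.22, adjusted p = 0.00770), and without Asrij high replicate 3 it just missed the threshold (adjusted p = 0.0535, range over alternatives 0.00130 to 0.0535). Sdhaf1, which helps to insert iron-sulphur clusters into the subunit Sdhb, had 13.4 ± 1.79 CPM in the Asrij high libraries and 8.40 ± 1.85 CPM in the Asrij low libraries, also without overlap (log2 fold change 0.67 ± 0.27, adjusted p = 0.0764). It passed without Asrij low replicate 2 (adjusted p = 0.0371), and 69.6% of its exon bases overlap E130208F15Rik on the other strand. Sdhaf4, which binds flavinylated Sdha, had 8.14 ± 0.521 CPM in the Asrij high libraries and 5.75 ± 1.74 CPM in the Asrij low libraries (log2 fold change 0.50 ± 0.32, adjusted p = 0.245).

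Sdhaf3, which acts with Sdhaf1 on Sdhb, had 3.09, 2.17 and 2.93 CPM in Asrij high replicates 1 to 3, against 0.185, 2.35 and 3.51 CPM in Asrij low replicates 1 to 3. The low value in Asrij low replicate 1 came from 10 counts, against 68 and 91 counts in the shallower Asrij low replicates 2 and 3. The Asrij low libraries thus spanned the Asrij high values (log2 fold change 0.45 ± 0.81, adjusted p = 0.691). Without Asrij low replicate 1 the fold change of Sdhaf3 was -0.07.

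Complex III factors had the lowest median of the 5 complexes. Only Uqcc2 of 6 members rose and 0 fell, with a median log2 fold change of 0.38. That count is below the 21.7% of all genes tested that were called higher. Uqcc2 and Uqcc1 encode partners that bind newly made cytochrome b, and Uqcc3 acts just after them. Uqcc2 (chromosome 17, 27122665 to 27133891) had 33.4, 33.8 and 26.2 CPM in Asrij high replicates 1 to 3, against 10.6, 9.87 and 18.4 CPM in Asrij low replicates 1 to 3. It was 2.41-fold higher in Asrij high, with no overlap between groups (log2 fold change 1.27 ± 0.28, adjusted p = 0.00702). Its partner Uqcc1 had 35.3 ± 1.23 CPM in the Asrij high libraries and 26.6 ± 5.50 CPM in the Asrij low libraries and did not pass the test, although its groups did not overlap (log2 fold change 0.40 ± 0.21, adjusted p = 0.151). Uqcc3 had 17.8 ± 1.46 CPM in the Asrij high libraries and 13.9 ± 2.76 CPM in the Asrij low libraries (log2 fold change 0.35 ± 0.24, adjusted p = 0.272).

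Bcs1l, Lyrm7 and Ttc19 serve the Rieske iron-sulphur protein. Lyrm7 holds it in the matrix, Bcs1l moves it into complex III, and Ttc19 clears fragments of it from the complex. Bcs1l had 40.6 ± 2.63 CPM in the Asrij high libraries and 28.7 ± 5.69 CPM in the Asrij low libraries and missed the threshold with no overlap between groups (log2 fold change 0.50 ± 0.20, adjusted p = 0.0729). It passed without Asrij low replicate 2 (adjusted p = 0.0194) and in limma-voom (adjusted p = 0.0466). Lyrm7 was near the bottom of the members in level, at 2.90 ± 0.408 CPM in the Asrij high libraries and 2.57 ± 1.006 CPM in the Asrij low libraries (log2 fold change 0.18 ± 0.46, adjusted p = 0.784), and its sign turned without Asrij low replicate 1 (-0.07). Ttc19 (chromosome 11, 62281429 to 62331879) had 92.5, 95.5 and 96.6 CPM in Asrij high replicates 1 to 3, against 88.7, 103 and 95.4 CPM in Asrij low replicates 1 to 3. All 6 libraries lay within a narrow band, and the standard error was the smallest among the members (log2 fold change -0.01 ± 0.14, adjusted p = 0.958). Scaled to library totals or upper quartile factors its log2 fold change was between -0.28 and -0.27, with an adjusted p of at least 0.114.

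Complex IV factors, 18 members, had 7 rises and 0 falls with a median log2 fold change of 0.73, and the rises included both enzymes that make haem a. Cox10 farnesylates haem b and Cox15 oxidises the product to haem a, the cofactor of the catalytic subunit COX1. Cox10 (chromosome 11, 63962627 to 64079472) had 33.3, 30.3 and 27.2 CPM in Asrij high replicates 1 to 3, against 15.4, 14.8 and 11.2 CPM in Asrij low replicates 1 to 3. It was 2.19-fold higher in Asrij high (log2 fold change 1.13 ± 0.22, adjusted p = 0.00372). Cox15 (chromosome 19, 43733254 to 43753000) had 87.7, 75.1 and 81.6 CPM in Asrij high replicates 1 to 3, against 52.6, 39.4 and 29.9 CPM in Asrij low replicates 1 to 3, a 2.0-fold difference (log2 fold change 1.003 ± 0.22, adjusted p = 0.00589). For both genes the lowest Asrij high library lay above the highest Asrij low library. Fdx2, the ferredoxin that feeds electrons to Cox15 and to iron-sulphur cluster synthesis, was higher too, at 17.7 ± 3.07 CPM in the Asrij high libraries and 9.93 ± 1.04 CPM in the Asrij low libraries (log2 fold change 0.83 ± 0.24, adjusted p = 0.0231), and was named after its value was seen.

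The other members grouped with COX1, namely Coa3, Cox14, Surf1 and Coa7, did not pass the test. Coa3 and Cox14 encode small membrane proteins that hold newly made COX1, Surf1 is needed at the step of haem a insertion, and Coa7 is a further factor needed for the complex in human cells. Coa3 had 17.2 ± 2.51 CPM in the Asrij high libraries and 9.56 ± 4.12 CPM in the Asrij low libraries without overlap (log2 fold change 0.85 ± 0.33, adjusted p = 0.0689). It passed without Asrij low replicate 2 (adjusted p = 0.0161), with no count filter (0.0205) and in limma-voom (0.0209). Coa7 had 17.7 ± 4.42 CPM in the Asrij high libraries and 12.5 ± 2.51 CPM in the Asrij low libraries (log2 fold change 0.50 ± 0.28, adjusted p = 0.178), and Surf1 had 26.5 ± 1.57 CPM in the Asrij high libraries and 21.5 ± 4.65 CPM in the Asrij low libraries (log2 fold change 0.30 ± 0.22, adjusted p = 0.311). Cox14 had 31.8, 27.4 and 28.2 CPM in Asrij high replicates 1 to 3, against 24.1, 28.7 and 22.1 CPM in Asrij low replicates 1 to 3, with overlapping groups (log2 fold change 0.22 ± 0.20, adjusted p = 0.401). It turned to -0.05 under library totals and upper quartile factors.

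Copper delivery to complex IV was split between genes that rose and genes that did not pass the test. Cox17 encodes the copper chaperone of the intermembrane space, which hands copper to Sco1 and Sco2 for the site in COX2 and to Cox11 for the site in COX1. Cox17 (chromosome 16, 38346983 to 38352763) had 36.4, 22.04 and 30.8 CPM in Asrij high replicates 1 to 3, against 7.14, 8.80 and 11.6 CPM in Asrij low replicates 1 to 3. It was 3.24-fold higher in Asrij high with no overlap (log2 fold change 1.70 ± 0.28, adjusted p = 0.00186), and Asrij high replicate 2 was the lowest of its group. Coa6, which acts with Sco1 and Sco2 (chromosome 8, 126422501 to 126425435), had 8.27, 7.32 and 8.87 CPM in Asrij high replicates 1 to 3, against 2.55, 3.33 and 0.772 CPM in Asrij low replicates 1 to 3. Its rise, 3.66-fold, was the largest among the members (log2 fold change 1.87 ± 0.50, adjusted p = 0.0158). The lowest value, that of Asrij low replicate 3, came from 20 counts. Leaving out Asrij high replicate 3 ended the call of Coa6 (adjusted p = 0.0522, range over alternatives 8.67e-04 to 0.0522). Sco1 rose 1.82-fold, at 15.9 ± 2.17 CPM in the Asrij high libraries and 8.73 ± 2.74 CPM in the Asrij low libraries (log2 fold change 0.86 ± 0.29, adjusted p = 0.0411), and missed the threshold when leaving out Asrij high replicate 1 or 3 (adjusted p = 0.178 and 0.117) or Asrij low replicate 2 or 3 (0.0769 and 0.118), and with a filter of at least 1 CPM (0.0535). Library totals and upper quartile factors also ended its call (log2 fold changes of 0.57 and 0.59, adjusted p = 0.181 and 0.136; range over alternatives 0.0227 to 0.181).

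Sco2, the paralogue of Sco1, had 28.3 ± 4.52 CPM in the Asrij high libraries and 21.7 ± 3.72 CPM in the Asrij low libraries and overlapping groups (log2 fold change 0.38 ± 0.22, adjusted p = 0.204). Its exons overlap Tymp on the same strand (68.3% of its exon bases) and Ncaph2 on the other (66.2%), so its counts are uncertain as those of a single gene. Cox19, a small cysteine-rich protein that keeps Cox11 in its active state, had 20.7 ± 2.33 CPM in the Asrij high libraries and 11.8 ± 3.96 CPM in the Asrij low libraries without overlap and missed the threshold by a small margin (log2 fold change 0.80 ± 0.29, adjusted p = 0.0515). It passed in DESeq2 (adjusted p = 0.0329), in limma-voom (0.0289), with replicate number as a block (0.0371), with no count filter (0.0166) and without Asrij low replicate 2 (0.0274). Cox11 had 13.5 ± 1.53 CPM in the Asrij high libraries and 8.59 ± 4.26 CPM in the Asrij low libraries, with Asrij low replicate 1 at 3.68 CPM and the other Asrij low libraries at 10.8 and 11.3 CPM (log2 fold change 0.66 ± 0.40, adjusted p = 0.219), and 48.3% of its exon bases overlap Tom1l1 on the other strand.

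The factors that receive and insert COX2 did not pass the test. Cox18 moves a tail of COX2 across the inner membrane, Cox20 chaperones COX2 and Cox16 links it to copper delivery. Cox20 had 25.7 ± 3.34 CPM in the Asrij high libraries and 16.5 ± 4.07 CPM in the Asrij low libraries without overlap (log2 fold change 0.64 ± 0.25, adjusted p = 0.0657). It passed without Asrij high replicate 2 (adjusted p = 0.0445), also when Asrij low replicate 3 was left out with it. Cox20 passed as well in limma-voom and with no count filter. Hnrnpu covers 91.1% of the exon bases of Cox20 on the other strand. Cox18 had 10.6 ± 3.43 CPM in the Asrij high libraries and 6.33 ± 3.04 CPM in the Asrij low libraries (log2 fold change 0.74 ± 0.40, adjusted p = 0.166) and passed without Asrij low replicate 2 (adjusted p = 0.0317). Cox16 had 12.8, 11.5 and 10.54 CPM in Asrij high replicates 1 to 3, against 6.28, 11.6 and 9.19 CPM in Asrij low replicates 1 to 3 (log2 fold change 0.37 ± 0.29, adjusted p = 0.352). Its highest Asrij low library lay inside the Asrij high range, and 56.8% of its exon bases are shared with Gm20498 on the same strand.

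Of the last 3 complex IV factors, Coa5 and Coa8 rose and Coa4 did not pass the test. Coa5, which is needed for complex IV formation in human cells (chromosome 1, 37417085 to 37430103), had 199, 157 and 208 CPM in Asrij high replicates 1 to 3, against 82.1, 106 and 89.2 CPM in Asrij low replicates 1 to 3. It was 2.03-fold higher in Asrij high (log2 fold change 1.02 ± 0.18, adjusted p = 0.00219), and the lowest Asrij high library was 157 CPM, against a highest Asrij low library of 106 CPM. Coa8, which protects complex IV under oxidative stress (chromosome 12, 111713268 to 111755057), had 15.1, 14.7 and 14.7 CPM in Asrij high replicates 1 to 3, against 9.85, 9.73 and 7.49 CPM in Asrij low replicates 1 to 3. Its groups did not overlap (log2 fold change 0.71 ± 0.24, adjusted p = 0.0410), but its call rested on most of the libraries. It missed the threshold when leaving out Asrij high replicates 1, 2 or 3 (adjusted p = 0.152, 0.0580 and 0.153), Asrij low replicates 1 or 3 (0.0575 and 0.0948), with replicate number as a block (0.0639), with either other filter on low counts (0.0532 and 0.0545), under library totals (log2 fold change 0.44, 0.217) or under upper quartile factors (0.45, 0.159), with a range from 0.0212 to 0.217. Coa4, a small cysteine-rich protein, had 5.62, 6.75 and 6.54 CPM in Asrij high replicates 1 to 3, against 6.18, 5.96 and 0.772 CPM in Asrij low replicates 1 to 3. Asrij low replicate 3 held 20 counts of it, against 334 and 172 in Asrij low replicates 1 and 2, and the other Asrij low libraries lay within the Asrij high range (log2 fold change 0.54 ± 0.62, adjusted p = 0.519). Leaving out Asrij high replicate 2 together with Asrij low replicate 3 gave Coa4 a log2 fold change of -0.017.

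Of the chaperones of complex V, Atpaf2 rose and Atpaf1 did not pass the test. Atpaf2 binds the alpha subunit and Atpaf1 the beta subunit of the F1 part of ATP synthase before they join. Atpaf2 (chromosome 11, 60400624 to 60420479) had 59.6, 49.0 and 62.0 CPM in Asrij high replicates 1 to 3, against 21.3, 31.3 and 20.5 CPM in Asrij low replicates 1 to 3. It was 2.33-fold higher in Asrij high (log2 fold change 1.22 ± 0.22, adjusted p = 0.00261). Atpaf1 had 17.5, 16.04 and 13.3 CPM in Asrij high replicates 1 to 3, against 13.1, 14.0 and 13.1 CPM in Asrij low replicates 1 to 3, with overlapping groups (log2 fold change 0.22 ± 0.23, adjusted p = 0.470), and its fold change was -0.05 under library totals and upper quartile factors.

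Partners within a step were compared by the ratio of their counts within each library, which does not depend on scaling. The ratio of Atpaf2 to Atpaf1 was 3.40, 3.06 and 4.66 in Asrij high replicates 1 to 3, against 1.62, 2.23 and 1.57 in Asrij low replicates 1 to 3. These ratios did not overlap between groups (exact permutation test, two-sided, p = 0.10). That is the smallest p that 3 against 3 libraries allow, so no pair could pass the threshold in this test. Among 5 such pairs, chosen with the values known, the exact p was 0.20 for Uqcc2 to Uqcc1 and for Sco1 to Sco2, 0.40 for Ndufaf4 to Ndufaf3 and 0.50 for Cox10 to Cox15. Adjusted over the 5 pairs, the p-values from this exact test lay between 0.33 and 0.50. Because of its smallest possible p, the test cannot decide whether the ratio of any pair differed between groups. The ratio of Uqcc2 to Uqcc1 was 0.960, 0.982 and 0.714 in Asrij high and 0.369, 0.320 and 0.904 in Asrij low, where replicate 3 stood within the Asrij high range. The ratio of Cox10 to Cox15 was 0.380, 0.404 and 0.333 in Asrij high and 0.293, 0.376 and 0.375 in Asrij low.

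Levels were compared between genes per kilobase of the union of their GENCODE M21 exons, which was available for 43 members and which overstates the length of genes with long minor transcripts. On this scale Cox14 stood highest, at 40.3 CPM per kilobase in Asrij high and 34.6 in Asrij low, followed in Asrij high by Uqcc2 (37.2 in Asrij high and 15.5 in Asrij low) and Coa5 (36.0 in Asrij high and 17.7 in Asrij low). Sdhaf3 and Lyrm7 stood lowest, at 0.535 and 0.574 CPM per kilobase in Asrij high and 0.396 and 0.508 in Asrij low. The medians over members were 9.32 CPM per kilobase in Asrij high and 4.29 in Asrij low. Across the 43 genes, Spearman correlations of the log2 fold change were -0.01 with exon length and -0.13 with the level in Asrij low, a description over genes that share the same 6 libraries.

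The spread between replicates differed by group. The median coefficient of variation over members was 12.6% in Asrij high and 23.2% in Asrij low, beside 21.3% and 28.2% over all genes tested, and it was larger in Asrij low for 36 of 44 members and for 13722 of the 21445 genes tested. Within Asrij high, replicate 2 held the lowest value for 27 members and the highest for 6. Within Asrij low, replicate 2 held the highest value for 26 members and replicate 3 the lowest for 25. All members together took 0.116%, 0.110% and 0.116% of the counts in Asrij high replicates 1 to 3, against 0.0840%, 0.0875% and 0.0719% in Asrij low.

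The nuclear subunits that these factors handle were higher in Asrij high nearly throughout. Of 77 nuclear subunit genes 72 rose (93.5%) and 0 fell, with a median log2 fold change of 1.52, beside 19 of 44 and 0.75 for the assembly factors. In each complex the median of the subunits was above that of its factors, at 0.91 for factors and 1.40 for subunits of complex I, 0.59 and 1.34 for complex II, 0.38 and 1.66 for complex III, 0.73 and 1.82 for complex IV, and 0.72 and 1.29 for complex V. These medians describe the lists and were not tested against each other. Summed over genes and taken as a share within each library, which scaling cannot change, assembly factor CPM equalled 11.7%, 13.7% and 12.6% of subunit CPM in Asrij high replicates 1 to 3, against 21.0%, 20.02% and 21.99% in Asrij low. For complex III the share was 16.9%, 23.5% and 18.4% in Asrij high, against 44.3%, 48.0% and 50.4% in Asrij low. Ttc19 supplied between 40.9% and 44.0% of that factor sum in Asrij high and between 51.5% and 54.8% in Asrij low, and without it the share was 10.01%, 13.4% and 10.3% in Asrij high and 20.9%, 23.3% and 22.8% in Asrij low. For complex IV it was 40.0%, 47.9% and 44.7% in Asrij high and 82.1%, 75.2% and 72.8% in Asrij low.

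**Figure D3:**
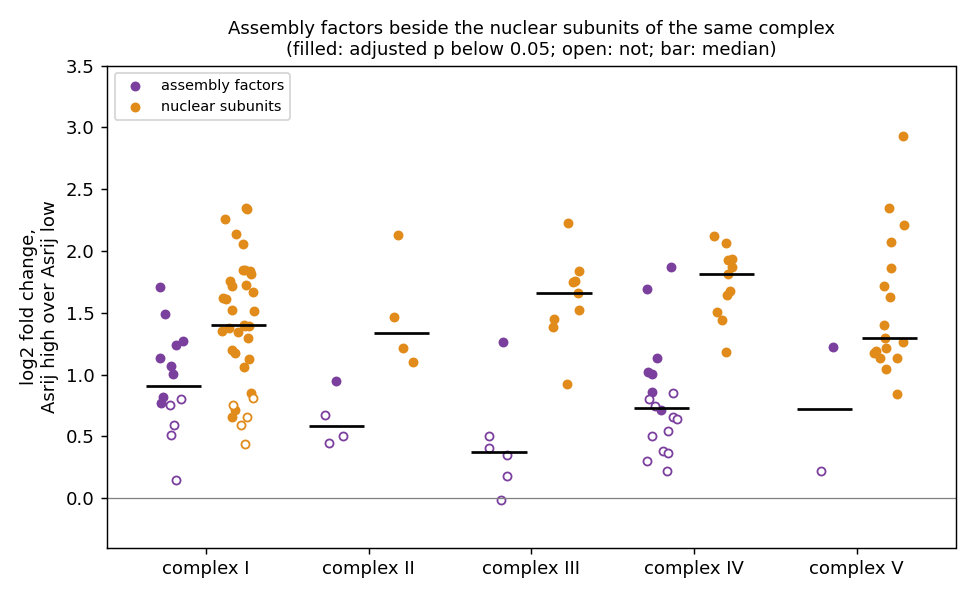
Log2 fold changes, Asrij high over Asrij low, of assembly factor genes (purple) and nuclear subunit genes (orange) of each complex, with filled points past the adjusted p threshold of 0.05 and bars at the medians. The subunit median lies above the factor median in all 5 complexes, with 0.38 for factors and 1.66 for subunits of complex III.

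**Figure D4:**
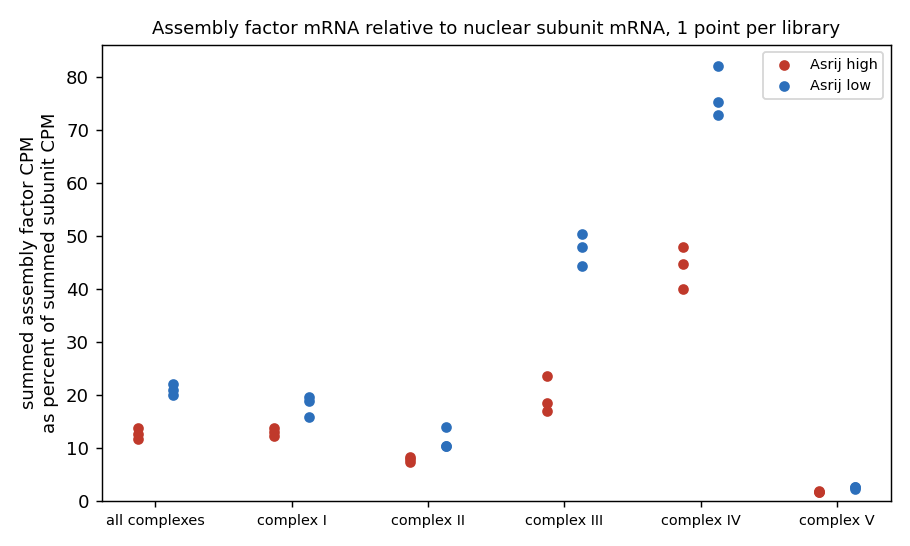
Summed assembly factor CPM as a percentage of summed nuclear subunit CPM, over all complexes and for each complex, with 1 point per library, Asrij high in red left of Asrij low in blue. In every column the 3 Asrij high libraries lie below the 3 Asrij low libraries, between 11.7% and 13.7% against between 20.02% and 21.99% over all complexes.

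Further assembly factors outside the symbol set also held more higher than lower calls. Of 34 such genes 12 rose and 1 fell, with a median log2 fold change of 0.51. Over all genes tested 21.7% were called higher and 17.7% lower. Aifm1, an oxidoreductase of the intermembrane space that supports the import factor Chchd4, rose to 151 ± 37.9 CPM in Asrij high, against 35.3 ± 5.13 CPM in Asrij low (log2 fold change 2.10 ± 0.22, adjusted p = 3.24e-04). Lrpprc, which stabilises mitochondrial mRNAs such as that of COX1, rose by 1.36 ± 0.16 on the log2 scale (adjusted p = 4.89e-04), and Cep89, which is linked to complex IV, by 1.16 ± 0.26 (adjusted p = 0.00758). The member that fell was 1810058I24Rik, the table's name for Stmp1 (log2 fold change -0.78 ± 0.22, adjusted p = 0.0203), named after its value was seen.

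Lists of cofactor supply held mostly higher calls, with exceptions. Of 14 genes of iron-sulphur cluster assembly 11 rose and 0 fell, with a median log2 fold change of 1.27. Lyrm4, which stabilises the cysteine desulphurase, rose by 2.72 ± 0.35 on the log2 scale (adjusted p = 6.28e-04), Bola3, which passes clusters to target proteins, by 1.98 ± 0.26 (adjusted p = 6.55e-04), and the mitochondrial chaperone Hspa9 by 1.77 ± 0.23 (adjusted p = 6.55e-04). Hscb, a co-chaperone of cluster transfer named after its value was seen, did not pass the test and was at 15.6 ± 3.94 CPM in the Asrij high libraries and 22.1 ± 2.36 CPM in the Asrij low libraries (log2 fold change -0.50 ± 0.25, adjusted p = 0.134). Of 8 genes of copper supply 6 rose, 1 fell and 1 did not pass the test. The copper importer Slc31a1 averaged 40.7 ± 6.97 CPM in the Asrij high libraries and 13.7 ± 1.61 CPM in the Asrij low libraries (log2 fold change 1.57 ± 0.22, adjusted p = 8.50e-04), and Sod1, which binds copper in the cytosol and intermembrane space, rose by 1.52 ± 0.19 (adjusted p = 6.16e-04). The copper-exporting ATPases went opposite ways. Atp7b averaged 196 ± 44.8 CPM in the Asrij high libraries and 6.31 ± 3.72 CPM in the Asrij low libraries (log2 fold change 4.96 ± 0.43, adjusted p = 2.21e-04). Atp7a, named after its value was seen, averaged 11.3 ± 2.62 CPM in the Asrij high libraries and 25.4 ± 1.36 CPM in the Asrij low libraries (log2 fold change -1.17 ± 0.24, adjusted p = 0.00514).

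Of 12 regulators of mitochondrial gene expression, 7 rose and 0 fell, with a median log2 fold change of 0.57. Pprc1, a coactivator related to PGC-1, rose by 1.11 ± 0.16 on the log2 scale (adjusted p = 9.05e-04), Nrf1 by 0.69 ± 0.16 (adjusted p = 0.00744) and Gabpa by 0.66 ± 0.16 (adjusted p = 0.0110). Nrf1 and Gabpa lost their calls under library totals (adjusted p = 0.0527 and 0.0703), under upper quartile factors (0.0526 and 0.0712) and on leaving out Asrij high replicate 3 (0.0595 and 0.0683), and Gabpa also without Asrij high replicate 1 (0.0583). Ppargc1a and Gabpb1, named after their values were seen, went the other way without passing the test. Their log2 fold changes were -2.05 ± 0.81 (adjusted p = 0.0690) and -0.38 ± 0.17 (adjusted p = 0.108). Ppargc1a was scarce, at 0.34 CPM in the Asrij high libraries and 1.42 CPM in the Asrij low libraries. Of 13 messenger RNAs encoded by mitochondrial DNA, whose products several of these factors handle, 0 rose and 11 fell. Their summed level was between 2474 and 3523 CPM in Asrij high and was 9489, 9652 and 25180 CPM in Asrij low replicates 1 to 3, so that the upper end was Asrij low replicate 3 alone. The log2 fold change of COX1 was -2.71 (adjusted p = 0.00146) and was -2.01 without that library (adjusted p = 9.91e-04).

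Markers of division and of several other cell types differed between the groups, and megakaryocyte-type markers did not pass the test. All 8 proliferation genes rose, with sums between 3365 and 5098 CPM in Asrij high and between 665 and 923 CPM in Asrij low. Of 6 erythroid-type markers 4 rose and 2 fell. Their sums ran from 3213 to 5170 CPM in Asrij high, against 6003 to 42370 CPM in Asrij low. Those that fell were Hba-a1 and Hbb-bs (log2 fold changes -3.05 and -2.90), whose Asrij low means of 11420 and 9299 CPM dominated the sums. Klf1, Gata1, Epor and Car1 rose, with log2 fold changes of 2.01, 1.63, 2.15 and 4.05, a direction that the sums do not show. Of 6 neutrophil-type markers 2 rose and 1 fell (between 2858 and 3499 CPM in Asrij high, between 473 and 2053 CPM in Asrij low). Mpo and Elane rose (log2 fold changes 4.16 and 4.15) and Mmp9 fell (-3.21). S100a8, S100a9 and Ltf did not pass the test, and their groups overlapped. B and plasma cell-type markers fell in 5 of 6 cases (between 12.4 and 15.6 CPM in Asrij high, between 50.1 and 191 CPM in Asrij low), and mesenchymal-type markers in 6 of 6 (between 15.4 and 32.3 CPM in Asrij high, between 126 and 882 CPM in Asrij low). Of 5 megakaryocyte-type markers 0 passed the test. Their sums were 342, 1014 and 300 CPM in Asrij high replicates 1 to 3, and between 427 and 721 CPM in Asrij low. Asrij high replicate 2 also had the highest HSC-type sum (147 CPM) and the lowest proliferation sum (3365 CPM) of its group. Col3a1 was at 0 in at least 1 library, and no other marker was. The part of these markers, and of the difference in depth, in the rise of the assembly factors was not tested, except that 17 members were called higher and 0 lower when every library was thinned to the total of the smallest, a setting chosen after seeing the data. With thinned counts 4199 of 19635 genes tested were called higher.

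Of the 19 members that rose, 11 were past the threshold in each of 16 alternative settings, namely Ndufaf1, Ndufaf2, Ndufaf7, Foxred1, Timmdc1, Uqcc2, Cox10, Cox15, Cox17, Coa5 and Atpaf2. Their largest adjusted p over those settings lay between 0.0106 for Ndufaf1 and 0.0386 for Cox15. The other 8 lost the call in at least 1 setting. Of the 25 members not called, 17 passed in none of the settings and 8 passed in at least 1.

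**Figure D5:**
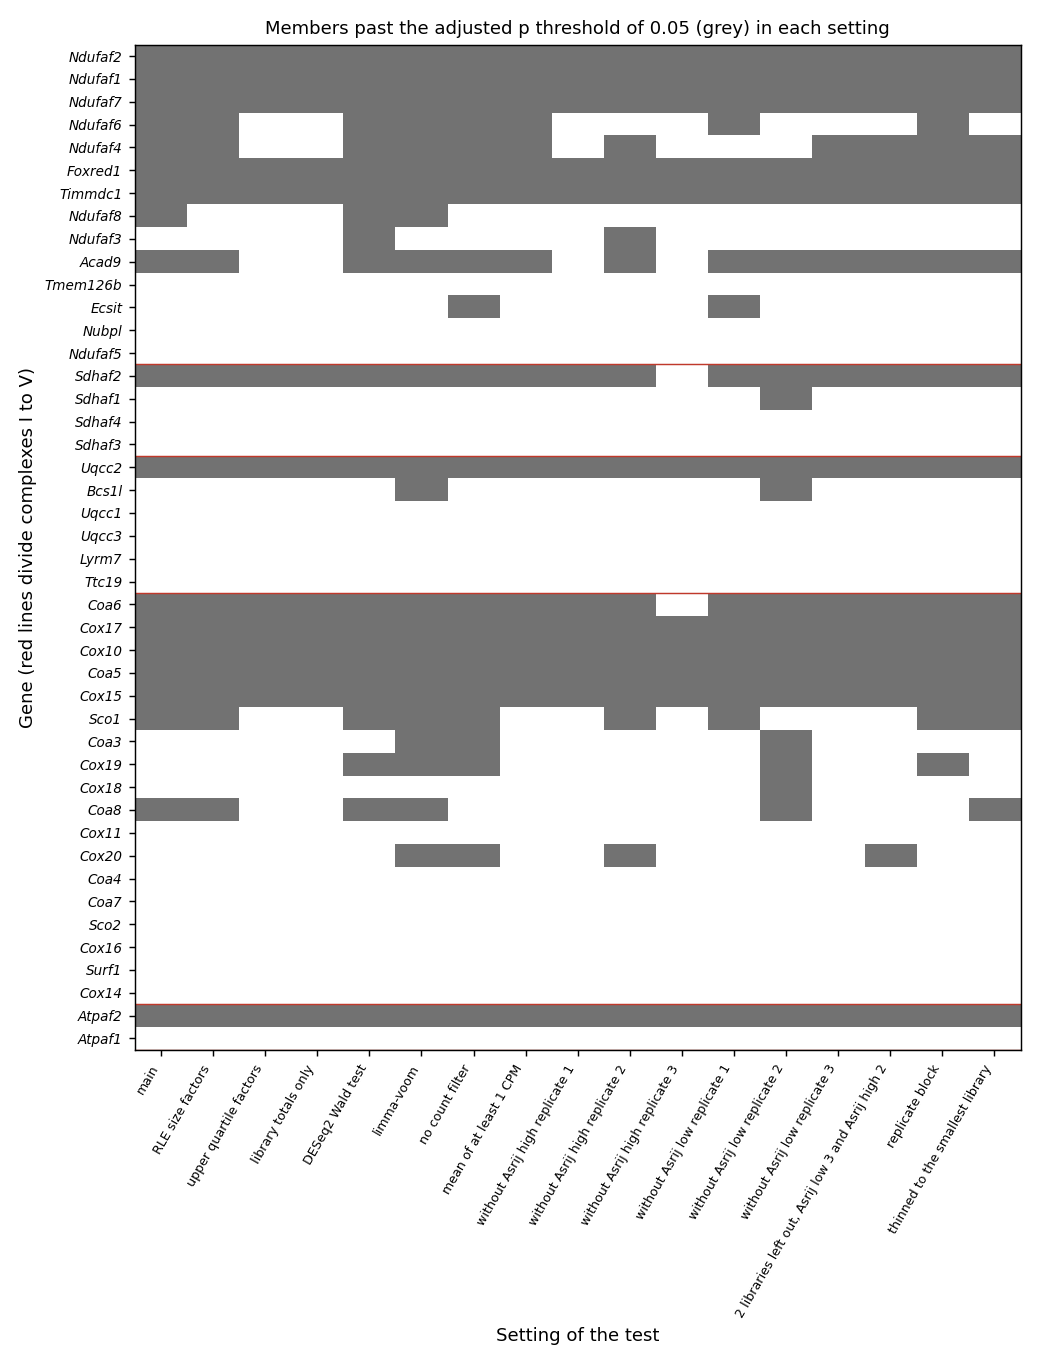
The 44 members (rows, by complex) and the settings of the test (columns), with grey where the adjusted p was below 0.05, so that a full grey row is a gene called in the main test and in all 16 alternatives. There are 11 full grey rows, and 17 rows are white throughout.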

How the data were processed

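RNA of LT-HSCs sorted for high or low Asrij gave 6 bulk RNA-seq libraries. Per the labels' protocols, ribosomal RNA was depleted and a directional kit was used, whereas the molecule field names polyA RNA. The authors deposited raw counts of reads for each gene symbol. The tools named per the submitters' processing notes are HISAT2, Subread, SAMtools and FastQC, with build mm10. The sources used here do not give their versions, the annotation, the strand setting or the handling of multimapping reads.

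From these counts, genes were kept by filterByExpr (minimum count 10, minimum total count 15; 21445 of 49997) and tested with edgeR 4.0.16 in R 4.3.3 (quasi-likelihood, TMM factors, robust, group only). The alternatives used DESeq2 1.42.0, limma 3.58.1 voom, other scalings and filters, libraries left out, a replicate block and thinned counts. The pipeline was tested on simulated counts in which a small set of genes was raised in Asrij high and no other gene differed. That setting cannot speak to the choice of scaling in these data. Standard errors came from the quasi-likelihood statistic. Replicates differed by more than sampling noise in every pair (chi-square over degrees of freedom 85.0 to 196). Coordinates and promoter windows are RefSeq's on GRCm38.p6, and exon lengths are GENCODE M21's.

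The members and lists were chosen with earlier results of these data known. Every member was named. Values in every library are given for the 2 members of each group with the smallest p past the threshold and the 1 closest to no change, and up to 3 genes of each context list may be named. Uqcc4, Uqcc5, Uqcc6 and Coa1 were not analysed here.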

Additional observations from a re-analysis of the deposited data

How the results depend on the processing

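Over the 16 alternatives, 0 members were called lower in any, and the number called higher ran from 11 to 23. With 1 library left out, the number called higher ran from 11 (without Asrij high replicate 3) to 20, the number called lower stayed at 0, and the median log2 fold change of the members ran from 0.62 (without Asrij low replicate 3) to 0.87. Over all genes the same settings gave between 3135 and 5183 higher and between 2346 (without Asrij high replicate 1) and 3752 lower calls, and a log2 fold change of Ociad1 between 0.53 (without Asrij high replicate 1, not past the threshold) and 0.76. With upper quartile factors the member median was 0.49 and Ociad1 was at 0.36, and with library totals they were at 0.48 and 0.36, with Ociad1 not past the threshold in either. The signs of 7 members, none past the threshold in any setting, turned. With upper quartile factors they were -0.052 for Atpaf1, -0.047 for Cox14, -0.085 for Lyrm7 and -0.13 for Ndufaf5, and with library totals -0.049 for Atpaf1, -0.050 for Cox14, -0.080 for Lyrm7 and -0.12 for Ndufaf5. Leaving out 1 library at a time gave ranges of -0.066 to 0.50 for Lyrm7 and -0.073 to 1.15 for Sdhaf3, both negative without Asrij low replicate 1, and of -0.072 to 0.077 for Ttc19. Ttc19 was at 0.068 without a count filter. Leaving out Asrij high replicate 2 together with Asrij low replicate 3 put Coa4 at -0.017. That setting called 16 members higher, where 4442 of 22007 genes tested were called higher. A setting with fewer libraries has fewer degrees of freedom, and otherwise the cause was not tested. Correlations of same-numbered deviations were 0.01, 0.04 and 0.19, the last being the largest of all. Differently numbered libraries ran from -0.13 to 0.08, with 0.08 for Asrij high replicate 1 and Asrij low replicate 2. With 3 libraries per group these correlations cannot decide whether replicate numbers pair the libraries. With the replicate number as a block 18 members were called higher, 17 of them also called without it: Ndufaf8 and Coa8 lost the call, Cox19 gained it, and no other member's call changed. Over all genes 4475 of 21445 were called higher with the block. Counts of 10 to 20 in 1 Asrij low library limit Sdhaf3, Coa4 and Coa6.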
